A study of Rattus norvegicus with 3 samples.

Results

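The kidneys of rats given thallium (Tl) were compared at 2 times after the start of administration, 5 days and 2 days. The array hybridized with kidney RNA of the Tl 5 days group was set against that of the Tl 2 days group, without reference to the control array of the same study. The members of the comparison are all 15037 genes with a named probe set on the array, all genes that the series could give, and 4658 of them had a log2 value above 9.3 on either Tl array (called bright below). Only 2 of the 3 arrays of the series entered the differences, 1 per condition, so no difference could be checked against replicates or tested, and every value is only as precise as a single array allows.

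The animals were male Wistar rats, 7 weeks old, that received thallium sulfate by intraperitoneal injection. The Tl 5 days group held 5 rats, of which 2 died before the end of the experiment, and the Tl 2 days group held 4 rats. The third group of the study, a control of 4 rats, was given double distilled water. The sources disagree on the treatment: the series design gives 30 mg/kg every day, the sample labels 40 mg/kg every day, and the study's methods 1 injection of 30 mg/kg. If the injections were daily, the number of doses differed between the groups together with the time, and dose number and time cannot be told apart. Whether an array held RNA of 1 rat or a pool, and whether RNA of a rat that died was included, is not given in the sources used here. The sample titles name kidney, but another label names spleen. Of markers of the proximal tubule 34 were measured, at a median level of 14.39 in Tl 5 days and 14.33 in Tl 2 days on the log2 scale. The highest value of the 5 measured B cell markers on either array was 6.80, and that of the 12 measured T cell markers was 8.66, for Cd4, so the defining genes of spleen lymphocytes were at dim levels.

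Thallium ions resemble potassium ions in size and charge and enter cells through potassium channels and the sodium-potassium pump. The kidney takes up and excretes thallium, and its tubule cells are among those injured by it. After acute injury, surviving proximal tubule cells lose features of the mature epithelium, re-enter the cell cycle and later differentiate again, and the oxidation of fatty acids, the main fuel of this segment, falls and recovers. The 2 conditions sample an earlier and a later time of exposure, and whether these kidneys followed that course was not tested.

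Among the 4658 genes above 9.3, 201 (4.32%) exceeded their Tl 2 days value by over 2-fold in Tl 5 days, and 230 (4.94%) were below it by over 2-fold. Over all 15037 genes these were 333 (2.21%) and 461 (3.07%). The median difference of the 4658 genes was 0 with an SD of 0.70 across genes, and 3675 of them (78.9%) lay within 1.5-fold. Exactly equal values on both arrays were found for 455 of these genes (9.77%). Of the 201 higher genes, 139 were above 9.3 on both arrays, and of the 230 lower genes 130 were. A gene that passed 9.3 only on the array where it was high had to differ, so the counts above 9.3 on both arrays are the more cautious ones. Every count of a gene list below is to be read beside the shares of all genes under the same filter. These are 4.32% higher and 4.94% lower above 9.3 on either array, and 3.32% and 3.10% above 9.3 on both. Just inside the limit of 9.3 was Siah1, which exceeded it only in Tl 5 days and had 8.86 in Tl 2 days, a difference of 0.44. Just outside was Coa3, with 9.25 in Tl 5 days and a difference of -0.05. Where a gene was at or below 9.3 on an array and a fold is given below, the fold is against 9.3, as "at least". Where only values or a difference are given for such a gene, the full size of its difference is not measured.

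Differences of this size also occurred among the negative control probe sets. Of 171 such probe sets above 9.3 on either array, 20 (11.7%) were higher by over 2-fold in Tl 5 days and 12 (7.02%) lower, larger shares than those of the genes. The SD of their differences was 1.06. Of 218 positive control probe sets above 9.3, 7 were higher and 5 lower. Of 63 ERCC probe sets, 0 differed by over 2-fold, but all of these were below 9.3. The counts of genes are therefore given as descriptions, and single genes are read beside this spread.

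**Figure D1:**
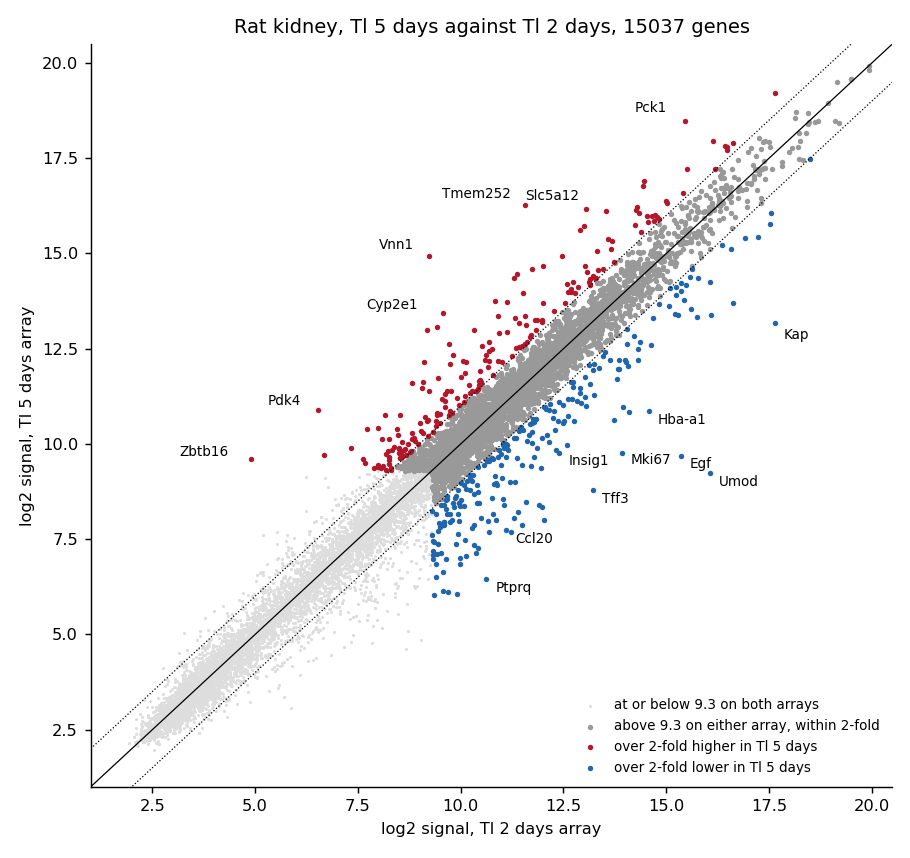
Log2 signal of each of 15037 genes on the Tl 5 days array (vertical axis) against the Tl 2 days array (horizontal axis), with the line of equality (solid) and the 2-fold limits (dotted). Red and blue points are the 201 genes over 2-fold higher and the 230 over 2-fold lower in Tl 5 days among those above 9.3 on either array, and Vnn1 and Umod lie farthest from the line.

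The largest positive difference was that of Vnn1, which encodes the pantetheinase vanin-1. It had a log2 value of 14.92 in Tl 5 days against 9.23 in Tl 2 days and was at least 49.3-fold higher. Pdk4, the kinase that shuts pyruvate dehydrogenase and spares glucose, had 10.88 against 6.54, a difference of 4.35, of which 1.58 lay above 9.3. Its control value was 6.73. Cyp4a1, a fatty acid omega-hydroxylase, had 14.35 against 11.30 (8.27-fold). Both array values of Cyp4a1 exceeded its control value of 8.81. Cyp2e1, the ethanol-inducible cytochrome P450, had 13.45 against 9.56 (14.8-fold). Adh1c, an alcohol dehydrogenase, had 13.003 against 9.18 and was at least 13.02-fold higher. Tmem252, a transmembrane protein, had 16.27 against 11.56 (26.2-fold). These 3 genes had control values of 9.22, 9.33 and 9.60. The Tl 2 days values of Cyp2e1 and Adh1c were close to these, whereas that of Tmem252, 11.56, was already well above its control value.

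Slc5a12, the sodium-coupled lactate transporter of the proximal tubule, had 16.16 in Tl 5 days and 13.05 in Tl 2 days (8.61-fold). Slc25a25, a mitochondrial carrier of ATP-magnesium, had 13.06 and 9.43 (12.4-fold). Prodh, proline dehydrogenase, which begins proline breakdown, had 13.75 and 10.83 (7.56-fold). These were bright on both arrays. Akap12, a scaffold of protein kinase A, had 12.62 and 9.71 (7.51-fold). The rest of the 15 largest positive differences were those of Pck1, G6pc1, Zbtb16, Fkbp5 and Tsc22d3, whose values follow with their groups. In 6 of the 15 the Tl 2 days value was at or below 9.3.

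Of the 15 largest negative differences, 7 were those of genes of cell division, described below. Umod, which encodes uromodulin of the thick ascending limb, had the largest difference of all, with 9.24 in Tl 5 days against 16.07 in Tl 2 days, so it was at least 109-fold lower in Tl 5 days. Egf, epidermal growth factor, made by the distal nephron, had 9.69 against 15.35 and was 50.5-fold lower. On the control array Umod had 18.70 and Egf 18.81. In whole kidney, fewer cells of a type and less RNA per cell cannot be told apart. Tff3, trefoil factor 3, a secreted peptide of epithelial repair, had 8.79 against 13.22 (at least 15.1-fold lower). Kap, kidney androgen-regulated protein, had 13.17 against 17.64 (22.1-fold lower). Ptprq, a receptor-type phosphatase, had 6.45 against 10.63 (at least 2.51-fold lower), and its control value was 8.56. Fam111a, a protease that acts at replication forks, had 6.10 against 9.70, with a bound of 1.32-fold. For 11 of these 15 genes the Tl 5 days value was at or below 9.3.

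**Figure D2:**
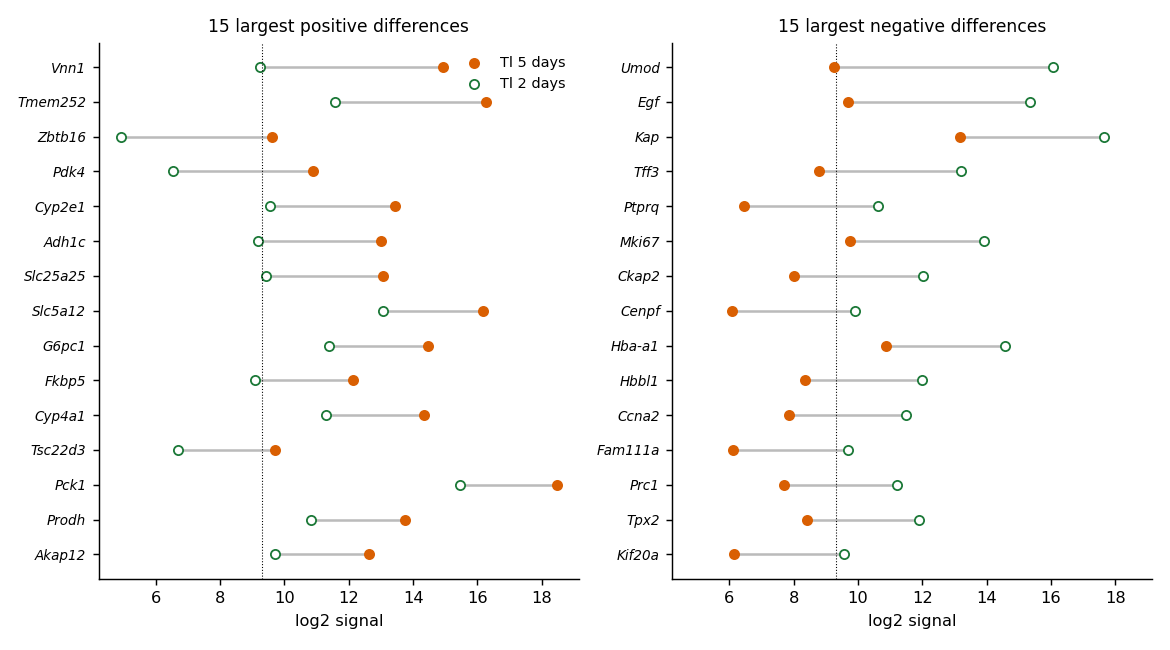
Log2 signal (horizontal axis) in Tl 5 days (filled) and Tl 2 days (open) of the 15 genes with the largest positive (left) and the 15 with the largest negative difference (right) among genes above 9.3 on either array, which the dotted line marks. Of the 15 on the right, 11 are at or below 9.3 in Tl 5 days, and of the 15 on the left, 6 are at or below it in Tl 2 days.

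Genes of cell division were lower in Tl 5 days. Of 36 measured genes of mitosis, 35 had a negative difference and the median was -2.17, against 0 over all genes. Above 9.3 were 19 of them, of which 18 were over 2-fold lower and 0 higher, beside 4.94% lower of all genes above 9.3. Only 5 of the 19 were above 9.3 on both arrays, with a median of -1.45, so most of these genes were dim in Tl 5 days and their full size is not measured. The values that the results turn on are those of genes for the proliferation antigen, cyclins and the spindle. Mki67, the proliferation antigen Ki-67, had 9.76 in Tl 5 days against 13.91 in Tl 2 days and was 17.8-fold lower. On the control array it had 8.71. Ccna2, cyclin A2 of S and G2 phase, had 7.87 against 11.48, at least 4.54-fold lower. Ccnb1, cyclin B1, which with its kinase starts mitosis, had 7.13 against 10.37, at least 2.09-fold lower. On the control array Ccna2 had 5.91 and Ccnb1 5.63, below both Tl values.

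Prc1, which bundles microtubules of the central spindle, had 7.68 in Tl 5 days against 11.22 in Tl 2 days (at least 3.79-fold lower). Tpx2, which activates Aurora A on the spindle, had 8.41 against 11.90 (at least 6.05-fold lower). Cenpf, a kinetochore protein, had 6.07 against 9.91, and Kif20a, a kinesin of cytokinesis, had 6.14 against 9.57. Because the Tl 2 days values of Cenpf and Kif20a were only just above 9.3, the bounds on their folds are 1.52 and 1.21. Ckap2, a spindle protein outside the list, had 7.997 against 12.02 (at least 6.58-fold lower). The exception among the bright genes was Kif11, the motor that separates the spindle poles, with 12.30 in Tl 5 days and 12.17 in Tl 2 days, a difference of 0.13.

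Genes of DNA replication differed the same way and by less. All 39 measured members had a negative difference, with a median of -1.13. Of 11 above 9.3, 9 were over 2-fold lower and 0 higher, beside 4.94% lower of all genes above 9.3. Only 6 of the 11 were above 9.3 on both arrays, with 4 of these lower and a median of -1.17. Rrm1, the large subunit of ribonucleotide reductase, which makes deoxynucleotides, had 11.71 in Tl 5 days against 13.80 in Tl 2 days, a difference of -2.08. Rrm2, its small subunit, had 8.21 against 11.40. Pcna, the sliding clamp of DNA polymerase, had 10.61 against 12.76, a difference of -2.14, and 10.61 on the control array. Mcm7, a subunit of the replicative helicase, had 8.74 against 10.43. Rrm2 and Mcm7 were dim in Tl 5 days, so the full size of their differences is not measured. Tyms, thymidylate synthase, and Dut, a dUTPase, were within 2-fold, at -0.60 and -0.77. Of 21 measured genes of G1 to S control, 11 were above 9.3, 3 of them over 2-fold lower and 0 higher. These 3 were Ccnd1 and Ccnd2, 2 cyclins D of the G1 phase, at -1.40 and -1.64, and Rbl1, a relative of the retinoblastoma protein, at -1.97. Among the 6 genes of G1 to S control above 9.3 on both arrays, 1 was over 2-fold lower. Cdk4, the partner kinase of cyclin D, had 10.44 in Tl 5 days and 10.43 in Tl 2 days. Myc, a driver of growth, had 10.74 and 11.07 and a difference of -0.33.

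Histones and tubulins, picked after their values were seen, were lower too. Of 32 measured histone genes, 17 were above 9.3, with a median of -1.44, and 12 of these were over 2-fold lower and 0 higher. Hist2h3c2, a histone H3 gene, had 13.38 in Tl 5 days against 16.09 in Tl 2 days and was 6.58-fold lower. H1f4, a linker histone, had 12.68 against 14.36 (3.22-fold lower). H3f3b, which encodes the replacement histone H3.3, differed by only -0.48. Histone genes are near-identical copies, so probe sets of several may share signal. Of 15 measured tubulin genes, 9 were above 9.3 and 6 of these were over 2-fold lower. Tubb5, a beta-tubulin, had 13.39 against 15.28 (3.70-fold lower). Tuba1b, an alpha-tubulin, had 15.40 against 16.92 (2.87-fold lower).

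**Figure D3:**
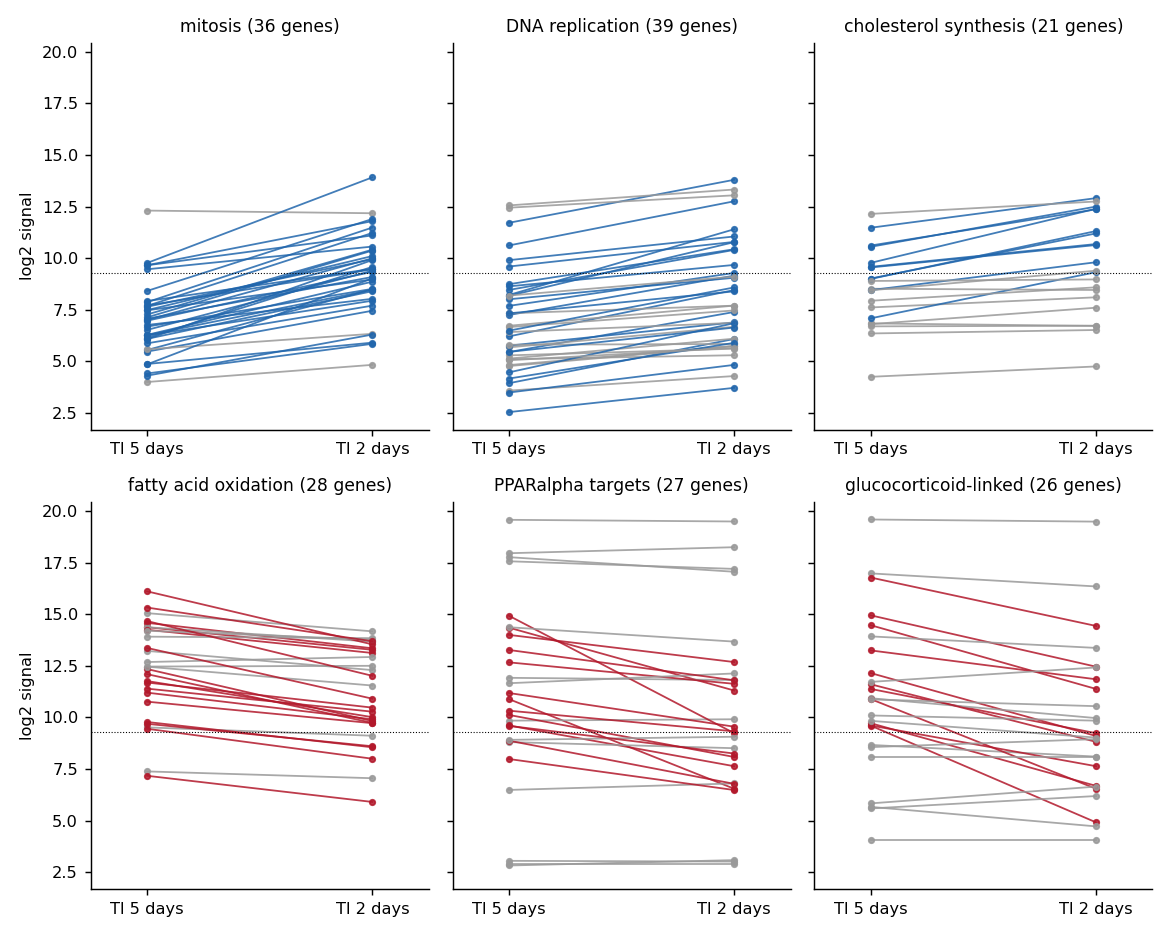
Log2 signal (vertical axis) of every measured gene of 6 lists in Tl 5 days (left of each panel) and Tl 2 days (right), 1 line per gene, red where over 2-fold higher and blue where over 2-fold lower in Tl 5 days. The dotted line is at 9.3. Of the mitosis genes 35 of 36 and of the DNA replication genes 39 of 39 were lower in Tl 5 days, and 26 of 28 genes of fatty acid oxidation were higher.

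Because these genes differed together, the promoters of the 2 lists were read from RefSeq, as 250 bases before to 50 after each start in build GRCr8. A promoter was matched for 30 of the 36 mitosis genes and 34 of the 39 replication genes. Mitotic genes are known in mammals to share the cell cycle gene homology region (CHR), bound by the DREAM and MuvB complexes, and CCAAT boxes, bound by NF-Y, while genes of DNA synthesis hold sites of E2F factors. The CHR was searched as TTTGAA and as TTCGAA with either letter, the CCAAT box as CCAAT, all on both strands. The E2F site was searched in its form TTCCCGC and in 3 variants, of which the first was TTGGCGC while the second was TTCGCGC and the last one was TTGCCGC, also on both strands. A CHR was present in 24 of the 30 mitosis promoters (80.0%) and 7 of 34 replication promoters (20.6%), against 16.8% of the 12435 promoters of measured genes and 19.5% of all 27457 promoters of the table. A CCAAT box was in 24 mitosis promoters (80.0%) and 20 replication promoters (58.8%), against 37.9% of those of measured genes. An E2F match was in 23 replication promoters (67.6%) and 6 mitosis promoters (20.0%), against 13.8%. Both a CHR and a CCAAT box were in 21 of the 30. Of the 24 mitosis genes with a CHR 22 were over 2-fold lower in Tl 5 days, and of the 6 without one 5 were, so the letters did not separate them. A match is a description of the sequence and not a site or a cause.

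The promoters of Mki67, Cenpf and Prc1 are shown because these 3 are among the 15 largest negative differences and hold both elements, and CHR and CCAAT matches on either strand are in capitals. They lie in GRCr8 at chr1:199952544-199952843 on the minus strand, chr13:103760837-103761136 on the minus strand and chr1:143659231-143659530 on the plus strand. In Mki67 the second CHR and a CCAAT box on the other strand share a base.
Mki67: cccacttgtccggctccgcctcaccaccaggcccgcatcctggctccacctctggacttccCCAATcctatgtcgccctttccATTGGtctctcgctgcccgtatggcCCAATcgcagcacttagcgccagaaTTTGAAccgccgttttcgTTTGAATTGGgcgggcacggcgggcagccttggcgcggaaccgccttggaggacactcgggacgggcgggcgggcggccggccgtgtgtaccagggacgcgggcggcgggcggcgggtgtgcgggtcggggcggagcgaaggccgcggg
Cenpf: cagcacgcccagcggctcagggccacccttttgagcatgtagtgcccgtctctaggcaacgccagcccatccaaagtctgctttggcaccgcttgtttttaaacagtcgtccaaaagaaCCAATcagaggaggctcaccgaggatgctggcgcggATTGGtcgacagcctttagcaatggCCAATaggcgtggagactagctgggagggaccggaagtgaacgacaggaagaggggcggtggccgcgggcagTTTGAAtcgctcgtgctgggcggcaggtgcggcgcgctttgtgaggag
Prc1: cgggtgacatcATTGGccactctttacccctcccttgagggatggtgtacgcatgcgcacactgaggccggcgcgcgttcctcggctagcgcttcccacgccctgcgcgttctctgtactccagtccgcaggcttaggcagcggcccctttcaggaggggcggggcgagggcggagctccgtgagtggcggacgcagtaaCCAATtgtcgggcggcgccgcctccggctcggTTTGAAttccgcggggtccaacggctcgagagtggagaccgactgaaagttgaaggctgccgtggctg
In Cenpf and Prc1 the CHR follows all CCAAT matches, and in Mki67 both CHR matches follow 3 of the 4 CCAAT matches.

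Of the 34 replication promoters, 11 hold more than 1 E2F match. Those of Rrm1 and Mcm7 are shown as 2 examples of these, and here the E2F matches on either strand are in capitals. They lie in GRCr8 at chr1:166235654-166235953 on the plus strand and chr12:22163129-22163428 on the minus strand. Mcm7 holds 4 matches, 2 of which overlap, and Rrm1 holds 2.
Rrm1: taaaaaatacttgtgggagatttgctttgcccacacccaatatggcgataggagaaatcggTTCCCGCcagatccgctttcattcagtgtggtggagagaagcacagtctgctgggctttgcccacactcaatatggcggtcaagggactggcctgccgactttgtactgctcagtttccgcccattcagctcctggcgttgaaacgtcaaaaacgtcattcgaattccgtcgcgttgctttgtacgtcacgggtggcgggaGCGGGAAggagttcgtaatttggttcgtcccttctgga
Mcm7: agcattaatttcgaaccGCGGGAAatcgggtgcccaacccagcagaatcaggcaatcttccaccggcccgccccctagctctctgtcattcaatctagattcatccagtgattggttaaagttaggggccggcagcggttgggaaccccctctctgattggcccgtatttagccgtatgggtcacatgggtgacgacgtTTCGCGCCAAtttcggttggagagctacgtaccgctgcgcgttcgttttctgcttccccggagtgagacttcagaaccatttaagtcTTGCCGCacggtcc
Both genes were lower in Tl 5 days, Rrm1 by a difference of -2.08 and Mcm7, dim in Tl 5 days, by one of -1.70.

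Fatty acid oxidation showed the opposite direction. This mitochondrial and peroxisomal pathway shortens acyl-CoA by repeated cycles of a dehydrogenase, a hydratase, a second dehydrogenase and a thiolase. Of 28 measured genes, 26 had a positive difference, and the median was 1.12 against 0 over all genes. Of 26 above 9.3 on either array, 17 were over 2-fold higher and 0 lower, beside 4.32% higher of all such genes. Of 22 above 9.3 on both arrays 14 were higher, beside 3.32% of all such genes. Earlier results of these data had already shown this list to be higher. Acsl1, which activates fatty acids to acyl-CoA, had 15.32 in Tl 5 days and 13.69 in Tl 2 days. Cpt1a, the carnitine acyltransferase that controls entry into mitochondria, had 14.58 and 13.35 (2.35-fold). Its partner on the inner membrane, Cpt2, had 11.20 and 9.90. The carrier between them, Slc25a20, had 10.76 and 9.72. These 4 genes of activation and entry were over 2-fold higher, whereas other acyl-CoA synthetases were not, with Acsl3 and Acsl5 both at -0.72 and Acsl4 at 0.70.

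Within the cycle, Acadl, long-chain acyl-CoA dehydrogenase, had 14.37 in Tl 5 days and 13.27 in Tl 2 days. Acaa2, a thiolase, had 13.36 and 10.90 (5.50-fold). Eci1, an enoyl-CoA isomerase for unsaturated chains, had 12.34 and 9.82 (5.74-fold). The dehydrogenase for medium chains, Acadm, stood apart, with 12.46 and 12.50. Ehhadh, the bifunctional enzyme of peroxisomes, had 16.11 and 13.54 (5.94-fold). Acot2, a mitochondrial acyl-CoA thioesterase, had 14.67 and 12.01 (6.30-fold), the largest difference of the list. On the control array Acaa2 had 10.73, Acadl 12.65 and Acot2 11.16, below both Tl values. Acsl1 had 14.47 there, between its Tl values, and Acadm 13.37, above both. Hadha and Hadhb, the 2 subunits of the trifunctional protein, were within 2-fold, at 0.88 and 0.70, and Echs1, the short-chain hydratase, was at -0.24.

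Targets of PPARalpha, the nuclear receptor that fatty acids activate, are largely enzymes of the same pathway and partly overlap it. Of 27 measured, the median was 0.71. Of 19 above 9.3, 11 were over 2-fold higher (against 4.32% of all such genes) and 0 lower, and of 14 above 9.3 on both arrays 6 were higher. Besides Vnn1, Pdk4 and Cyp4a1 these included Angptl4, an inhibitor of lipoprotein lipase, with 9.61 in Tl 5 days and 7.63 in Tl 2 days, and Pex11a, a factor of peroxisome division, with 11.18 and 9.55. Angptl4 was dim in Tl 2 days and only just above 9.3 in Tl 5 days, which leaves a bound of 1.24-fold. Plin2, the coat of lipid droplets, had 12.66 and 11.62. Members that are bright in kidney without a difference of this size were Cyp4a2 and Cyp4a8, further omega-hydroxylases, with 19.57 and 19.49 and with 17.76 and 17.05. Ppara itself was dim, at 8.33 and 7.14. A PPAR response element, as a direct repeat of the nuclear receptor half-site with 1 base between, was in 0 of 23 promoters of fatty acid oxidation, against 0.0402% of those of measured genes, which says only that these letters are not in this window.

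Of the genes that glucocorticoids are known to induce, some were higher in Tl 5 days. Glucocorticoids are adrenal steroids released in stress and fasting. Of 26 measured, the median was 0.88, and of 19 above 9.3, 11 were over 2-fold higher (against 4.32% of all such genes) and 0 lower. However, 8 of the 19 passed 9.3 on 1 array only, and of the 11 above 9.3 on both arrays 4 were over 2-fold higher and 0 lower, with a median of 0.63. The list is not independent evidence of its direction, because Zbtb16, Fkbp5, Tsc22d3 and G6pc1 were known to be higher from earlier results. Without these 4, the 22 others had a median of 0.60, and of 15 above 9.3, 7 were over 2-fold higher and 0 lower. Fkbp5, a co-chaperone of the glucocorticoid receptor, had 12.14 in Tl 5 days against 9.10 in Tl 2 days (at least 7.19-fold). Zbtb16, a zinc finger repressor, had 9.60 against 4.91, and Tsc22d3, the leucine zipper protein GILZ, had 9.72 against 6.68. The Tl 5 days values of both were close to 9.3, which leaves bounds of 1.23-fold and 1.33-fold.

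Sgk1, a kinase that raises sodium transport, had 14.94 in Tl 5 days and 12.45 in Tl 2 days (5.62-fold). Per1, a clock gene with a glucocorticoid response, had 11.38 and 9.23 (at least 4.22-fold). Errfi1, a brake on the EGF receptor, had 16.77 and 14.43, a difference of 2.35. Sult1a1, a sulfotransferase, had 11.60 and 8.81 (at least 4.93-fold), and Klf9, a Krüppel-like factor, had 13.24 and 11.84. Mt2A and Mt1, the metallothioneins, were bright and within 2-fold, at 0.10 and 0.63. Tgm2, a transglutaminase, was lower within the limit, at -0.70. Among 17 measured clock genes, 6 were above 9.3. Besides Per1, Nr1d1 and Nr1d2, the REV-ERB repressors, were over 2-fold lower, at -1.71 and -1.16. Only 3 of the 6 clock genes were above 9.3 on both arrays, with 0 of these over 2-fold higher and 1 lower. Bhlhe40 and Dbp, 2 further clock-controlled factors, were at -0.98 and -0.89. The hour at which kidneys were taken is not given in the sources used here, and its part in these values was not tested.

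Gluconeogenesis, the making of glucose, takes place in liver and proximal tubule. Of 15 measured genes, 11 were above 9.3, and 2 of them were over 2-fold higher and 0 lower. Pck1, phosphoenolpyruvate carboxykinase, had 18.47 in Tl 5 days and 15.45 in Tl 2 days (8.14-fold). G6pc1, glucose-6-phosphatase, which releases glucose, had 14.46 and 11.38 (8.51-fold). The control values were 15.48 for Pck1 and 12.39 for G6pc1. Fbp1, fructose-1,6-bisphosphatase, lay within 2-fold, at 0.62, and Pc, pyruvate carboxylase, was at -0.96. Of 20 measured genes of glycolysis, 15 were above 9.3, with 0 over 2-fold higher and 1 lower, which was Pkm, pyruvate kinase, with 11.19 and 12.62. Gapdh, often used as a loading standard, had 17.21 and 17.23.

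Genes of cholesterol synthesis were lower. This pathway is switched by SREBP2 according to the sterol content of membranes. Of 21 measured genes, 19 had a negative difference and the median was -0.95. Of 12 above 9.3, 10 were over 2-fold lower and 0 higher, against 4.94% of all genes above 9.3, and of 7 above 9.3 on both arrays 6 were lower. Insig1, the sterol-sensitive brake on SREBP and itself a target of it, had 9.77 in Tl 5 days against 12.40 in Tl 2 days (6.17-fold lower). Cyp51, lanosterol demethylase, had 8.99 against 11.31 (at least 4.03-fold lower). Msmo1, sterol methyl oxidase, had 10.55 against 12.50, and Dhcr7, the last reductase of the pathway, had 10.61 against 12.37. Fdft1, squalene synthase, had 11.47 against 12.91. Idi1, isopentenyl diphosphate isomerase, had 9.01 against 11.20, and Srebf2, which encodes SREBP2, had 8.45 against 9.80. The genes for HMG-CoA reductase and synthase and for the LDL receptor had no named probe set here.

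A sterol response element, searched as TCACNCCAC on both strands, was in 0 of 17 promoters of the list, against 1.11% of those of measured genes, and a CCAAT box was in 14 of 17 (82.4%). Of 18 measured genes of fatty acid synthesis, 11 were above 9.3, with 1 over 2-fold higher and 3 lower. Of the 10 above 9.3 on both arrays, 0 were higher and 3 lower. Scd2, a stearoyl-CoA desaturase, had 9.96 in Tl 5 days against 12.59 in Tl 2 days, and Me1, malic enzyme, had 11.08 against 12.93. Fads1, a fatty acid desaturase, was at -1.13. The higher gene was Elovl6, an elongase, with 10.24 against 8.48. Acly, ATP citrate lyase, had 11.94 and 11.97.

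The proximal tubule was split. Of 34 measured markers, 32 were above 9.3, and 8 of these were over 2-fold higher and 8 lower. Above 9.3 on both arrays were 27 of them, with 7 higher and 7 lower. Higher were, besides Pck1, the exchanger of organic anions Slc22a8, with 16.07 in Tl 5 days and 14.33 in Tl 2 days, and the bicarbonate cotransporter Slc4a4, with 17.22 and 15.52. Slc2a2, the glucose transporter GLUT2, had 14.20 and 12.59, Aqp1, the water channel, 17.82 and 16.44, and Cubn, the endocytic receptor cubilin, 16.60 and 15.40. Lower were Slc22a2, the organic cation transporter of the basolateral membrane, with 12.19 and 14.30, and Mme, the brush border peptidase neprilysin, with 15.44 and 17.23. Slc13a1, the sulfate cotransporter, had 15.78 and 17.53, and Kl, the FGF23 coreceptor klotho, which the distal tubule also makes, had 12.50 and 14.30. Gatm, which makes the precursor of creatine, had 16.07 and 17.56. The defining genes Lrp2, megalin, and Slc34a1, the phosphate cotransporter, differed little, by 0.24 and -0.25, and so did Slc5a2, the glucose cotransporter SGLT2, at 0.35.

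Some genes of the last part of the proximal tubule and of male rodent kidney, picked after their values were seen, were among the lower ones. They form no list and were not counted against all genes of these kinds, so they describe single genes only. Besides Kap and Slc22a2, Slc7a13, an amino acid transporter of this part, had 13.69 in Tl 5 days against 16.62 in Tl 2 days (7.65-fold lower), with 19.14 on the control array. Slco1a6, an organic anion transporter, had 10.62 against 13.72 (8.57-fold lower) and 17.81 on the control array. Hnmt, which inactivates histamine, had 10.98 against 13.94 (7.77-fold lower) and 17.75 on the control array. In each of these 3 the Tl 5 days value was the lowest of the series and the control value the highest.

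**Figure D4:**
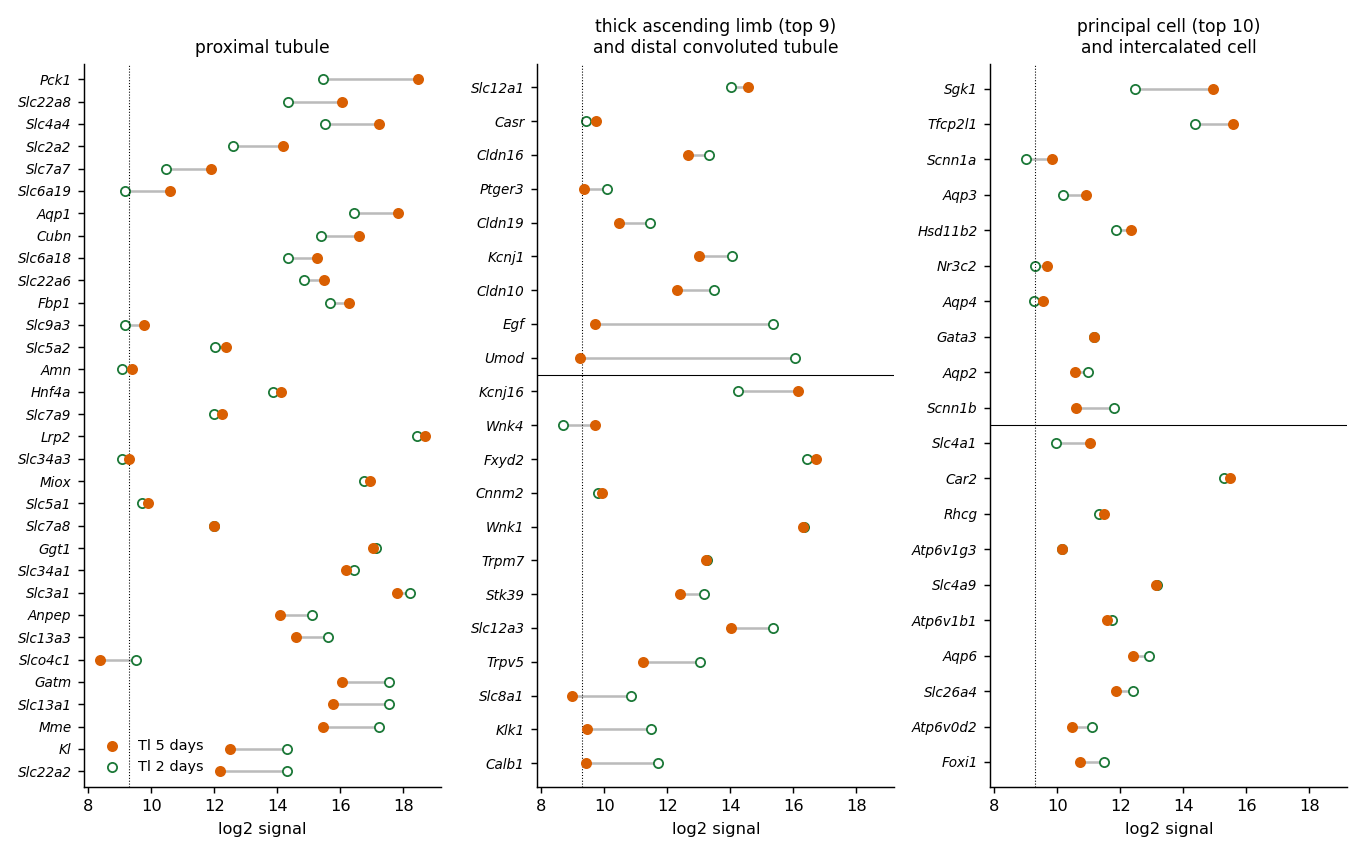
Log2 signal (horizontal axis) in Tl 5 days (filled) and Tl 2 days (open) of the markers of nephron segments above 9.3 on either array, each group ordered by the difference. Proximal tubule markers lie on both sides, with 8 over 2-fold higher and 8 lower, while Umod and Egf have by far the longest lines among the distal segments.

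Apart from these markers, 27 organic ion and ABC transporters were measured, of which 16 were above 9.3, with 2 over 2-fold higher and 4 lower. Above 9.3 on both arrays were 13 of them, with 2 higher and 2 lower. Abcc2, the exporter MRP2 of conjugates, had 15.39 in Tl 5 days and 13.58 in Tl 2 days, with 9.90 on the control array. Of 33 measured cytochromes P450, 14 were above 9.3, and 6 were over 2-fold higher and 2 lower. Among the 11 above 9.3 on both arrays, 5 were higher and 0 lower. Cyp2c23, the arachidonic acid epoxygenase of rat kidney, had 19.20 and 17.64. Cyp24a1, which degrades vitamin D, had 17.23 and 16.19, against 10.70 on the control array. Of 43 measured genes of amino acid catabolism, 31 were above 9.3, with 4 over 2-fold higher and 1, Gatm, lower. Besides Prodh these were Hpd of tyrosine breakdown, with 17.95 and 16.13, Glud1, glutamate dehydrogenase, which feeds ammonia production, with 16.34 and 15.01, and Glyctk, glycerate kinase, at 1.11. Among 29 measured phase II enzymes, 15 were above 9.3, with 1 higher, Sult1a1, and 3 lower, Hnmt, Ugt2b7 and Ugt2b35. Of the 14 above 9.3 on both arrays, 0 were higher and 3 lower. The glucuronosyltransferase Ugt2b7 had 10.24 and 12.11.

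In the thick ascending limb, the segment that dilutes urine, 12 markers were measured, with a median level of 9.71 in Tl 5 days and 12.39 in Tl 2 days. Of 9 above 9.3, 4 were over 2-fold lower and 0 higher, and the median difference over all 12 was -0.85. Of the 8 above 9.3 on both arrays, 3 were lower and 0 higher. Besides Umod and Egf, Cldn10, a sodium-selective claudin, had 12.32 and 13.47, and Kcnj1, the potassium channel ROMK, had 13.01 and 14.05. The defining cotransporter of the segment, Slc12a1 (NKCC2), did not share this direction, with 14.57 in Tl 5 days and 14.01 in Tl 2 days, and 17.60 on the control array. Casr, the calcium-sensing receptor, was at 0.30. The differences of the 7 bright markers other than Umod and Egf lay between -1.15 and 0.56.

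In the distal convoluted tubule, 12 of 15 measured markers were above 9.3, with 2 over 2-fold higher and 5 lower. Lower were Calb1, the calcium buffer calbindin, with 9.43 in Tl 5 days against 11.72 in Tl 2 days, Trpv5, the calcium channel, with 11.24 against 13.03, and Slc8a1, the sodium-calcium exchanger, with 8.97 against 10.85. The thiazide-sensitive cotransporter Slc12a3, which defines the segment, had 14.01 against 15.36, and Klk1, kallikrein, was at -2.03. Higher were Kcnj16, a potassium channel of the basolateral membrane, with 16.14 against 14.25, and Wnk4, a kinase that regulates Slc12a3, at 1.03. Magnesium-linked Cnnm2 and Trpm7 were within 2-fold, at 0.14 and -0.04. Above 9.3 on both arrays were 10 of the markers, of which 1 was over 2-fold higher and 4 lower.

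Of 13 measured markers of collecting duct principal cells, 10 were above 9.3, with 2 over 2-fold higher and 1 lower. The higher ones were Sgk1 and Tfcp2l1, a transcription factor of the duct, with 15.57 in Tl 5 days and 14.37 in Tl 2 days. Scnn1b, the beta subunit of the epithelial sodium channel, had 10.59 and 11.79, whereas its alpha subunit Scnn1a was at 0.81. Aqp2, the vasopressin-regulated water channel, had 10.55 and 10.99. Of 10 bright markers of intercalated cells, which secrete acid or base, 1 was over 2-fold higher and 0 lower. It was Slc4a1, the anion exchanger AE1, with 11.03 and 9.96. Since red cells also express Slc4a1 while haemoglobin genes were lower (below), its cell source was not tested.

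Potassium and calcium handling was also listed, since thallium uses potassium routes. Of 22 measured potassium channels, pump subunits and cotransporters, 10 were bright, with 1 over 2-fold higher, Kcnj16, and 1 lower, Kcnj1. Atp1b1, the beta subunit of the sodium-potassium pump, had 17.12 in Tl 5 days and 16.36 in Tl 2 days, a difference of 0.77. Kcnk1, a 2-pore potassium channel, was at 0.53, and Slc12a2, the cotransporter NKCC1, at -0.42. Of 12 bright genes of vitamin D and phosphate handling, 1 was over 2-fold higher, Cyp24a1, and 3 were lower, Calb1, Kl and Trpv5. Of 17 bright claudins and junction genes, Cldn1 was over 2-fold higher, at 1.10, and Cldn10 lower. Each is 5.88% of the 17, near the 4.32% higher and 4.94% lower of all genes above 9.3. Among the 14 above 9.3 on both arrays, 0 were higher and 1 lower. In the EGF family, 8 genes were bright, and only Errfi1 (higher) and Egf (lower) passed 2-fold. Erbb3, a receptor of the family, was at 0.53, and Hbegf, a ligand, at -0.75. Of 10 bright hypoxia targets, 1 was over 2-fold higher, Bnip3, a mitophagy receptor, at 1.17, and 1 lower, Loxl2, at -1.11. Among the 8 above 9.3 on both arrays, 1 was higher and 0 lower.

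The 3 injury markers that the study names were nearly level between the Tl times, while the list as a whole held more lower than higher genes. Havcr1, kidney injury molecule 1, had 18.46 in Tl 5 days and 18.47 in Tl 2 days. Clu, clusterin, had 17.31 and 17.81, and Lcn2, neutrophil gelatinase-associated lipocalin, had 13.92 and 13.36. On the control array these 3 had 5.52, 9.83 and 5.47, so they stayed high. Of 32 measured markers, 24 were above 9.3, with 2 over 2-fold higher and 8 lower, and the median of the 24 was -0.41. Besides Vnn1, the other higher one was Gpnmb, a glycoprotein of lysosome-rich cells, with 10.42 against 7.99 (at least 2.18-fold). Among the lower ones were Fga and Fgb, the fibrinogen alpha and beta chains, with 13.34 against 15.76 and 9.36 against 11.95. Hmox1, heme oxygenase 1, had 7.15 against 9.53, which is a bound of only 1.17-fold. Above 9.3 on both arrays were 19 of the markers, of which 0 were over 2-fold higher and 5 lower.

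Some genes of inflammation and of the immediate response were lower in Tl 5 days, and others were level. Of 7 chemokines above 9.3, 4 were over 2-fold lower and 1, Ccl6 (1.22), higher. Only 3 of the 7 were above 9.3 on both arrays, with 1 of these lower and 0 higher. Ccl20, which attracts dendritic cells and some T cells, had 7.74 in Tl 5 days against 11.10 in Tl 2 days (at least 3.48-fold lower), and Ccl2, which attracts monocytes, had 8.56 against 11.04. The others were Cxcl11, at -1.51, and Cx3cl1, at -1.11. Of 10 bright genes of NF-kB and cytokines, 3 were over 2-fold lower and 0 higher, among them Lif, leukemia inhibitory factor, with 7.68 against 10.68 and Socs3, a feedback inhibitor of cytokine signalling, with 8.05 against 10.49. The third was Vcam1, an adhesion molecule, at -1.29. All 3 were above 9.3 in Tl 2 days only. Among the 7 genes of this list above 9.3 on both arrays, 0 passed 2-fold and the median was -0.01. Of 12 bright immediate early genes, 3 were over 2-fold lower and 0 higher, but 7 of the 12 had a positive difference and the median of the 12 was 0.22. Among the 10 above 9.3 on both arrays, 1 was over 2-fold lower and 0 higher. Egr1, a transcription factor, had 13.41 against 15.22, and Junb, a partner in AP-1, had 7.94 against 9.73, and Fosl2, another AP-1 subunit, was at -1.25, while Jun was at 0.58. Of 12 bright acute phase and complement genes, 2 were over 2-fold lower, Fga and Fgb, and 1 was higher, Cp, ceruloplasmin, the copper-carrying ferroxidase, with 15.08 against 13.32. Interferon and antigen presentation genes had 1 of 8 bright members over 2-fold lower, Bst2, at -1.07, and 0 higher, and the median of the 8 was 0.35.

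Stress pathways went different ways. Of 10 bright p53 targets, 4 were over 2-fold higher and 1 lower, beside 4.32% and 4.94% of all genes above 9.3. Among the 9 above 9.3 on both arrays, 3 were higher and 1 lower. Sesn2, sestrin 2, a nutrient and stress sensor, had 12.58 in Tl 5 days and 10.52 in Tl 2 days, and Tp53inp1, a pro-death and autophagy factor, had 12.91 and 10.94. Ccng1, cyclin G1, had 12.86 and 11.72, and Gdf15, a stress cytokine, had 9.41 and 7.997. Gdf15 was dim in Tl 2 days and only just above 9.3 in Tl 5 days, so the size of its difference is not measured. Mdm2, the p53 ligase and a classical target, was level, at 0.02. Sesn2 and Gdf15 are also targets of Atf4, the factor of the integrated stress response. Of 13 bright Atf4 targets, 4 were over 2-fold higher and 0 lower, with Niban1 at 1.69 and Asns, asparagine synthetase, at 1.34, while Atf4 itself was at 0.24. Among the 11 above 9.3 on both arrays, 3 were higher and 0 lower.

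Among 24 bright targets of Nrf2, the regulator of antioxidant genes, 1 was over 2-fold higher, Abcc2, and 6 were lower. Above 9.3 on both arrays were 22 of them, with 1 higher and 4 lower. Akr1b8, an aldose reductase relative, had 8.49 in Tl 5 days against 11.59 in Tl 2 days (at least 4.89-fold lower), and Srxn1, sulfiredoxin, had 10.25 against 11.67. Gclm, the modifier of glutathione synthesis, had 17.48 against 18.50. Of 18 bright ER stress genes, 0 passed 2-fold in either direction, and the largest difference was that of the chaperone Hspa5 (BiP), at -0.97. Tfrc, the transferrin receptor, had 10.73 against 12.62, and Ncoa4, which sends ferritin to the lysosome, had 14.60 against 13.47.

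The study asked about ribosomes and mitochondria. All 68 measured cytoplasmic ribosomal protein genes were above 9.3, and 64 of them had a positive difference, with a median of 0.46 and quartiles at 0.28 and 0.64. Only 3 were over 2-fold higher and 0 lower, which at 4.41% is near the 4.32% of all genes above 9.3. They were Rpl24, Rps27 and Rps28, at 1.22, 1.08 and 1.03. Rps3, the 40S protein used as a ribosomal marker, had 14.27 in Tl 5 days and 13.70 in Tl 2 days, a difference of 0.58. Of 29 bright ribosome assembly factors, 0 passed 2-fold, and of 43 measured 30 had a negative difference, with a median of -0.11. Nop58 and Nop56, core proteins of box C/D particles, were at -0.87 and -0.78, and Npm1, nucleophosmin, was at 0.34. The ribosomal proteins and the assembly factors thus did not share a direction.

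Mitochondrial genes were nearly level. Of 58 respiratory chain genes and 20 genes of the TCA cycle above 9.3, 0 passed 2-fold, with medians over all measured members of 0.04 and 0.02. Mdh2, mitochondrial malate dehydrogenase, had 13.72 in Tl 5 days and 13.73 in Tl 2 days. Cs, citrate synthase, was at -0.11, Sdha, a subunit of succinate dehydrogenase, at 0.45, and Idh2, isocitrate dehydrogenase, had 13.67 and 13.58. Among the regulators of mitochondrial biogenesis, Ppargc1a (PGC-1alpha) had 14.04 and 13.38, Nrf1, nuclear respiratory factor 1, 11.54 and 12.11, and Tfam, the factor of mitochondrial transcription, 9.33 and 8.74. Mitochondrial ribosomal proteins had 0 of 19 bright members past 2-fold. The higher level of fatty acid oxidation genes was thus not shared by the respiratory chain or the TCA cycle. Among 19 bright mitochondrial carriers, 3 were over 2-fold higher, Slc25a25, Slc25a42 and Slc25a20. Above 9.3 on both arrays were 18 of them, with 2 higher and 0 lower. Actb, beta-actin, a common standard, had 19.81 and 19.93, where the Tl 2 days value is at the top of the table's range.

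Other cells of the kidney also differed. Haemoglobin genes, products of red cells and their precursors, were lower: Hba-a1 had 10.86 in Tl 5 days against 14.58 in Tl 2 days (13.2-fold lower), Hbb had 10.83 against 14.09 and Hbbl1 had 8.34 against 11.99. Of 12 measured erythroid genes, 3 were above 9.3, all of them haemoglobin genes and all over 2-fold lower, the least of them at -1.87. Hbbl1 is not in this list, and 2 of the 3 were above 9.3 on both arrays. The median level of the list was 5.07 in Tl 5 days and 5.57 in Tl 2 days. Haemoglobin genes are near-identical copies, so their probe sets may share signal. The part of residual blood in these values was not tested.

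Of 25 measured macrophage markers, 7 were above 9.3, with 3 over 2-fold higher and 0 lower, and the list's median difference was 0.03. Only 5 of the 7 were above 9.3 on both arrays, with 1 of these higher and 0 lower. Ctss, cathepsin S, had 10.76 in Tl 5 days against 8.53 in Tl 2 days, Mrc1, the mannose receptor, 9.499 against 7.67, and Lyz2, a lysozyme, 17.81 against 16.48. Ctss and Mrc1 were dim in Tl 2 days, and Mrc1 was only just above 9.3 in Tl 5 days, so the size of its difference is not measured. The defining markers Csf1r and Adgre1 were dim and level, at 7.62 against 7.81 and 6.14 against 6.14. Of 35 measured genes of lysosome and autophagy, 26 were above 9.3, with 6 over 2-fold higher (5 of the 24 above 9.3 on both arrays) and 0 lower, and a median of 0.35. Besides Ctss, which is in both lists, these included Ctsh, cathepsin H, with 15.99 against 14.53, Hexa, a hexosaminidase, with 14.34 against 13.13, and Tpp1, a lysosomal peptidase, with 13.71 against 12.54. Ctsd, cathepsin D, was at -0.75. None of the 11 measured neutrophil markers was above 9.3.

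Markers of vessels, podocytes and matrix were lower or level. Cdh5, VE-cadherin of endothelial junctions, had 10.14 in Tl 5 days against 11.98 in Tl 2 days, and Eng, endoglin, had 12.84 against 14.22. They were the 2 of 7 bright endothelial markers over 2-fold lower, and 0 were higher. All 9 measured podocyte markers had a negative difference, with a median of -0.57. Podxl, podocalyxin of the foot process surface, had 13.63 against 15.07, and Synpo, synaptopodin, had 9.75 against 10.98. Of 21 bright genes of fibroblasts and matrix, 5 were over 2-fold lower and 0 higher, among them Fbn1, fibrillin 1, with 10.03 against 11.73, and Col1a1, a chain of type I collagen, with 9.85 against 10.93. Col3a1 of type III collagen was level, at 0.05. Above 9.3 on both arrays were 20 genes of fibroblasts and matrix, with 4 lower and 0 higher. In the TGF-beta and BMP list, 4 of 9 bright genes were over 2-fold higher and 0 lower. They were Id1, Id2 and Id4, the BMP-responsive inhibitors of differentiation, at 1.14, 1.02 and 1.28, and Gdf15. Among the 6 genes of this list above 9.3 on both arrays, 2 were higher and 0 lower.

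**Figure D5:**
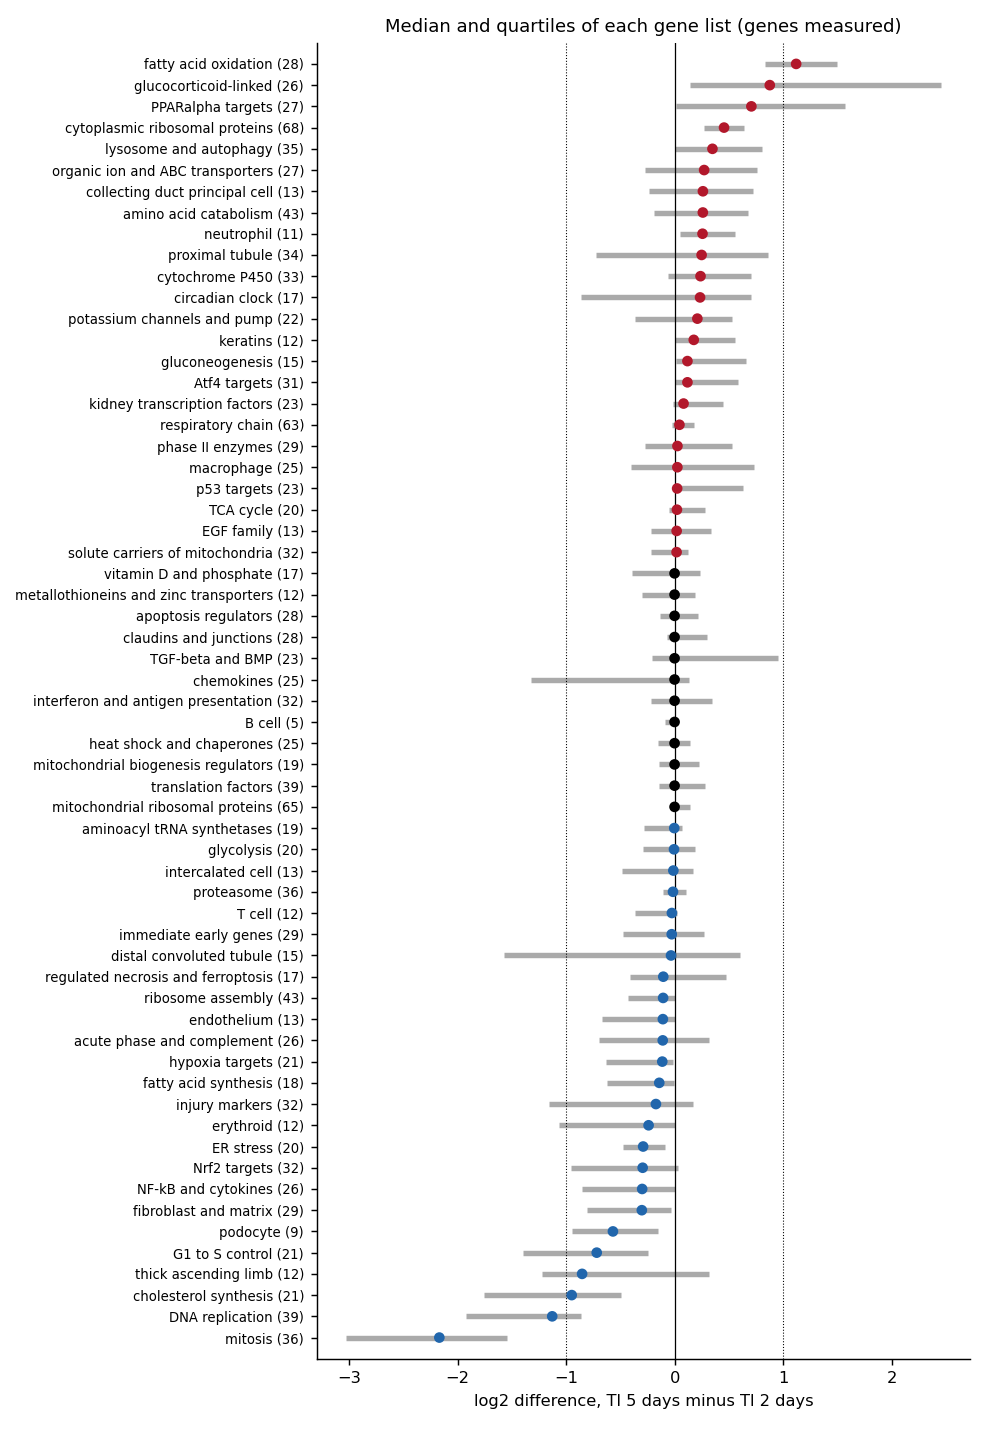
Median (point) and quartiles (bar) of the log2 difference, Tl 5 days minus Tl 2 days, of all measured members of each of 61 gene lists, with the number of genes in brackets and dotted lines at the 2-fold limits. Mitosis, DNA replication and cholesterol synthesis lie lowest, with medians of -2.17, -1.13 and -0.95, and fatty acid oxidation highest, with 1.12.

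In 13 of the 61 lists genes above 9.3 were measured but 0 passed 2-fold in either direction, and 3 further lists, those of neutrophils, T cells and B cells, had 0 genes above 9.3. The 13 included, besides those named above, the proteasome, with 33 bright genes and a median of -0.01, the heat shock proteins and chaperones, with 20, and the aminoacyl tRNA synthetases, with 15. Apoptosis regulators had 8 bright genes, of which Mcl1 and Bcl2l1, inhibitors of cell death, were at 0.31 and 0.33. Among kidney transcription factors, Hnf4a of the proximal tubule had 14.13 in Tl 5 days and 13.85 in Tl 2 days, and Pax8 of the whole tubule had 14.68 and 14.53.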

How the data were processed

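The arrays were of the Clariom S rat type, hybridized with kidney RNA of the Tl 5 days, Tl 2 days and control groups, 1 array each. The authors deposited a table with 1 log2 value per probe set and array, which they analysed with Transcriptome Analysis Console. Its version, the summarization and the normalization are not given in the sources used here, and the base of the logarithm was taken as 2 from the folds in the study's text. The table held 24834 probe sets. The platform annotation gave 1 gene symbol for 15049 of them, several for 0 and none for 9785. All 15049 gene IDs matched the RefSeq annotation of GRCr8. For 10 genes with several probe sets the mean was used, which left 15037 genes, and neither scaling nor a pseudocount was applied to the deposited log2 values.

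The difference was the log2 value of the Tl 5 days array minus that of the Tl 2 days array. Genes above 9.3 on either array were weighed, and over 2-fold means a difference beyond 1. The control array entered no difference and its values are given beside single genes. No test was made. Of each of 61 gene lists the median difference and the counts past 2-fold are given. The members and lists were chosen with earlier results of these data known, so their direction is not independent evidence. Named are the 15 largest differences each way among genes above 9.3, up to 4 bright members of each list by size of difference with the members a list is known for, and the genes of the study. Of the study's genes, Fh had no named probe set. The counting was checked on simulated data. Python 3.11.15, numpy 2.4.6, pandas 2.3.3, statsmodels 0.14.6 and matplotlib 3.10.9 were used. The alternatives were quantile normalization, 2 centrings, a lowess curve of span 0.3, a floor at 9.3, other filters, the brightest probe set and fold limits of 1.5 and 3.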

Additional observations from a re-analysis of the deposited data

How the results depend on the processing

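With 1 array per condition the alternatives show the effect of processing only, and no replicate could be left out. No paired analysis was possible because the result comes from no test and each group has 1 array. The number of genes over 2-fold higher in Tl 5 days (201) was 333 over all genes, 492 at a limit of 1.5-fold and 76 at 3-fold. The number over 2-fold lower (230) was 130 among genes above 9.3 on both arrays, 461 over all genes, 491 at 1.5-fold and 123 at 3-fold. Quantile normalization, both centrings and the lowess curve gave 192 to 227 higher and 211 to 238 lower genes, and under centring on the median of all genes the higher ones (227) outnumbered the lower ones (211).

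Raising values to a floor of 9.3 set the median of DNA replication to 0, from -1.13, that of mitosis to -0.019, from -2.17, and that of cholesterol synthesis to -0.0906, from -0.95, by construction, since 28 of 39, 17 of 36 and 9 of 21 members were at or below 9.3 on both arrays. Among members above 9.3 on either array the medians were -2.87 for mitosis, -1.60 for cholesterol synthesis and 1.97 for glucocorticoid-linked genes (0.88 over all measured), and above 9.3 on both arrays they were -1.45 for mitosis and 0.63 for glucocorticoid-linked genes. The scalings shifted the difference of any gene by at most about 0.18, well under 1.5-fold. That they moved 0 of 61 list medians and 0 of 226 named genes by over 1.5-fold follows from this size alone. The floor moved 4 lists and 42 genes, and 0 reversed. Neither such shifts nor a floor can reverse a gene's difference beyond 1, so the 0 says nothing about the arrays. The alternative without 4 glucocorticoid-linked genes, added after the data were seen, gave a median of 0.60. The size of the differences of these lists is limited by dim signals.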

Other observations

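Probe sets without a gene name differed about as often as the genes. Of 8139 such probe sets that are not marked as controls, 1695 were above 9.3 on either array, and 70 of these (4.13%) were over 2-fold higher and 77 (4.54%) lower in Tl 5 days. The largest positive differences were those of TC0900001663.rn.2, with a log2 value of 13.09 in Tl 5 days and 8.38 in Tl 2 days, and TC0200001807.rn.2, with 14.64 and 10.94. The largest negative ones were those of TC0200003231.rn.2, with 7.06 and 12.61, and TC0200000619.rn.2, with 9.42 and 14.67. The gene of none of these 4 is named in the sources used here.

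The share of genes past 2-fold was larger among brighter genes. Of 300 genes whose higher value was 15 or above, 35 (11.7%) were over 2-fold higher and 28 (9.33%) lower in Tl 5 days. Of 2125 genes whose higher value lay between 9.3 and 11, these were 66 (3.11%) and 96 (4.52%).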
